A study of Mus musculus with 2 samples.

Results

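The 37 genes described here encode glycolysis and the mitochondrial oxidation of its carbon, followed in immune cells of regenerating mouse muscle. They were taken by gene symbol from both deposited count matrices, out of 13289 genes listed in both. Glycolysis holds 18 of them, pyruvate dehydrogenase with the tricarboxylic acid cycle holds 15, and 4 are cytosolic enzymes that share substrates with the cycle. Live CD45+ CD11b+ Ly6G- cells had been sorted from tibialis anterior muscle 4 days after an injection of 50 µl of 10 µM cardiotoxin from *Naja pallida*, a toxin that destroys muscle fibres and sets off repair. A 10x library was made from Gata3KO mice (C57BL/6:Cx3cr1CRExGata3fl/fl) and another from Wt mice (C57BL/6), with 8000 cells loaded for each. The Gata3KO strain carries Cre at *Cx3cr1*, which monocytes and macrophages use, and floxed *Gata3*, and the Wt mice carry neither allele according to their strain label, so an effect of the Cre line itself and of the deletion cannot be told apart. The labels give neither the animals' age nor their number or pooling.

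Glycolysis splits glucose into pyruvate in the cytosol, and pyruvate leaves either as lactate or through pyruvate dehydrogenase into the mitochondrial cycle. Macrophages exposed to inflammatory or hypoxic signals are known for a high use of glycolysis, and alternatively activated macrophages for a high use of mitochondrial oxidation. Transcript levels are not fluxes, and every value is a count of transcripts tagged near their 3′ ends, so levels do not depend on transcript length.

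With 1 library per genotype there was no replicate, so no test was made. Counts are given as UMIs (unique molecular identifiers, 1 per captured transcript) and as CPM (UMIs per 1000000 UMIs of the summed cells). Intervals are exact 95% intervals that cover counting error only, not the spread between animals. The Gata3KO library held 3434 barcodes and 19422237 UMIs and the Wt library 3290 barcodes and 15392330 UMIs, and 2 barcodes occurred in both. The median mitochondrial share was 21.8% in Gata3KO and 15.7% in Wt, so the limit of 10% kept 650 Gata3KO cells and 990 Wt cells. Monocytes and macrophages (clusters 1 to 3) held 397 Gata3KO cells and 404 Wt cells, of 17284 and 8856 median UMIs. The 9 macrophage markers summed to 35360 CPM in Gata3KO and 33374 CPM in Wt there. *Gata3* had 1 UMI in each genotype, so these cells did not check the deletion. *Cx3cr1* was at 372 CPM in Gata3KO and 272 CPM in Wt. Although the sort was for CD45+ cells, cluster 7 was led by muscle genes (*Myh3*, *Myog*) and cluster 4 by collagen genes. In the class the 7 skeletal muscle markers, all detected in both libraries, summed to 56.8 CPM in Gata3KO and 173 CPM in Wt; their part in the results was not tested.

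Promoters of 5 glycolysis genes are shown. *Eno1* and *Pfkfb4* were the glycolysis genes past 1.5-fold between the libraries, and the other 3 were picked from the glycolysis genes that hold the motif. Each is the stretch of 250 bases before the most upstream RefSeq start listed (GRCm38.p6), 5′ to 3′ on the gene's strand, with every ACGTG on either strand (read as ACGTG or CACGT, both within the E-box CACGTG) in capitals. ACGTG is a form of the core of the hypoxia response element, which hypoxia-inducible factors bind. The other form, GCGTG, was not searched for and is not in capitals. *Ldha* lies at chr7:46845554-46845803, plus strand. *Pgk1* lies at chrX:106186850-106187099, plus strand. *Pgam1* lies at chr19:41911621-41911870, plus strand. *Eno1* lies at chr4:150236458-150236707, plus strand. *Pfkfb4* lies at chr9:108991652-108991901, plus strand.
Ldha: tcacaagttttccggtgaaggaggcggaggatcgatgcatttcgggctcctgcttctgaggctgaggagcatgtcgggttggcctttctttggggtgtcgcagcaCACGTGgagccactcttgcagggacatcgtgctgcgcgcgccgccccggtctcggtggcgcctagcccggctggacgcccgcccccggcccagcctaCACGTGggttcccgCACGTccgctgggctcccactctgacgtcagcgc
Pgk1: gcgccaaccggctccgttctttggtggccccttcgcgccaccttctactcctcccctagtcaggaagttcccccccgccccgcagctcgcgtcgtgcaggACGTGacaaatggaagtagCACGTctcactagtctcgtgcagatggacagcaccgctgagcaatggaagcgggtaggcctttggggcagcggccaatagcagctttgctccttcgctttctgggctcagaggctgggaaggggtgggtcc
Pgam1: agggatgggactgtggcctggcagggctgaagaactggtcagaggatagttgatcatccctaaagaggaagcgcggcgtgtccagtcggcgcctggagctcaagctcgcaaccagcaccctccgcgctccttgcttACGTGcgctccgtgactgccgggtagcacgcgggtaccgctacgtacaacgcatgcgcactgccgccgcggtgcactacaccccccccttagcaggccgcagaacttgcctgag
Eno1: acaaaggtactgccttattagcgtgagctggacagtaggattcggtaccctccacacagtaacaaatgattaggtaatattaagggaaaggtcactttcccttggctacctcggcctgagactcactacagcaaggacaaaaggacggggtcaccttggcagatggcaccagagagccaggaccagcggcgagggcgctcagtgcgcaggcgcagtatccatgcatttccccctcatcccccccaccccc
Pfkfb4: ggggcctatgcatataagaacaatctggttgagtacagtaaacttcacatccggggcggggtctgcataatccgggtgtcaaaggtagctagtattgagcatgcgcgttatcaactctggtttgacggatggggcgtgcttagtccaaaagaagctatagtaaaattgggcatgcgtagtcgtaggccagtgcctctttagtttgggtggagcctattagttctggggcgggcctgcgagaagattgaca
Promoters were listed for 36 of the 37 genes. A gene was counted if any of its listed windows, not only the most upstream, held a match. This was so for 10 of 18 glycolysis genes (55.6%), 3 of 14 mitochondrial genes (21.4%) and 2 of 4 cytosolic genes. Of all 27025 genes with a promoter listed it was so for 18.5%. Some genes have several windows, and by window a match lay in 22 of 50 (44.0%) of these genes' windows, against 16.6% of all 32851. The printed *Ldha* promoter held 5 matches (a CACGTG counts on each strand), that of *Pgk1* 2 and that of *Pgam1* 1. No ACGTG lay on either strand in any listed window of *Eno1* and *Pfkfb4*. The printed windows of *Eno1* and *Pfkfb4* do hold GCGTG, which was not counted for any gene. Sequence was counted without regard to binding, which these data do not measure.

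In monocytes and macrophages the Gata3KO library held more glycolysis transcript than the Wt library, and about as much for mitochondrial oxidation. The 18 glycolysis genes summed to 4651 CPM in Gata3KO and 3591 CPM in Wt, a log2 ratio of 0.37 (0.35 to 0.40). Pyruvate dehydrogenase and the cycle summed to 836 CPM in Gata3KO and 791 CPM in Wt (log2 ratio 0.079, 0.018 to 0.14). Each mitochondrial UMI thus stood beside 5.57 glycolysis UMIs (5.41 to 5.73) in Gata3KO and 4.54 (4.38 to 4.71) in Wt. On the log2 scale this balance differed by 0.29 (0.23 to 0.36).

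The class was made of different clusters in the 2 libraries, and the balance within each of those clusters was nearer. Cluster 1, lipid-handling macrophage-like (*Gpnmb*, *Fabp5*), gave 196 of the Gata3KO cells and 111 of the Wt cells. Cluster 2, led by interferon-induced genes (*Iigp1*, *Gbp2*, *Ifit2*), gave 35 Gata3KO cells and 227 Wt cells. Cluster 3, led by *Arg1*, *Cxcl2*, *Gdf15* and *Hilpda*, gave 166 Gata3KO cells and 66 Wt cells. In cluster 2 the balance was 3.51 in Gata3KO and 3.51 in Wt, and in cluster 3 it was 6.70 in Gata3KO and 6.72 in Wt. Cluster 1 had 4.85 in Gata3KO and 4.43 in Wt, a log2 difference of 0.13 (0.029 to 0.24). With the 3 clusters given equal weight the difference was 0.042, against 0.29 for the class. Depth moved with the class as well: among cells of 20000 UMIs or more the balance was 5.75 (5.55 to 5.96) in 155 Gata3KO cells and 5.67 (5.32 to 6.04) in 44 Wt cells, from 10000 to 20000 UMIs it was 5.30 (5.04 to 5.58) in 153 Gata3KO cells and 4.24 (4.00 to 4.49) in 133 Wt cells, from 5000 to 10000 UMIs it was 4.69 (4.06 to 5.45) in 44 Gata3KO cells and 3.80 (3.50 to 4.13) in 142 Wt cells, and below 5000 UMIs it was 5.16 (4.02 to 6.70) in 45 Gata3KO cells and 2.90 (2.44 to 3.46) in 85 Wt cells. The shallow Wt cells were mostly of cluster 2 (69 of 85), the shallow Gata3KO cells mostly of cluster 1 (26 of 45), and the parts of depth and makeup were not separated further.

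**Figure D1:**
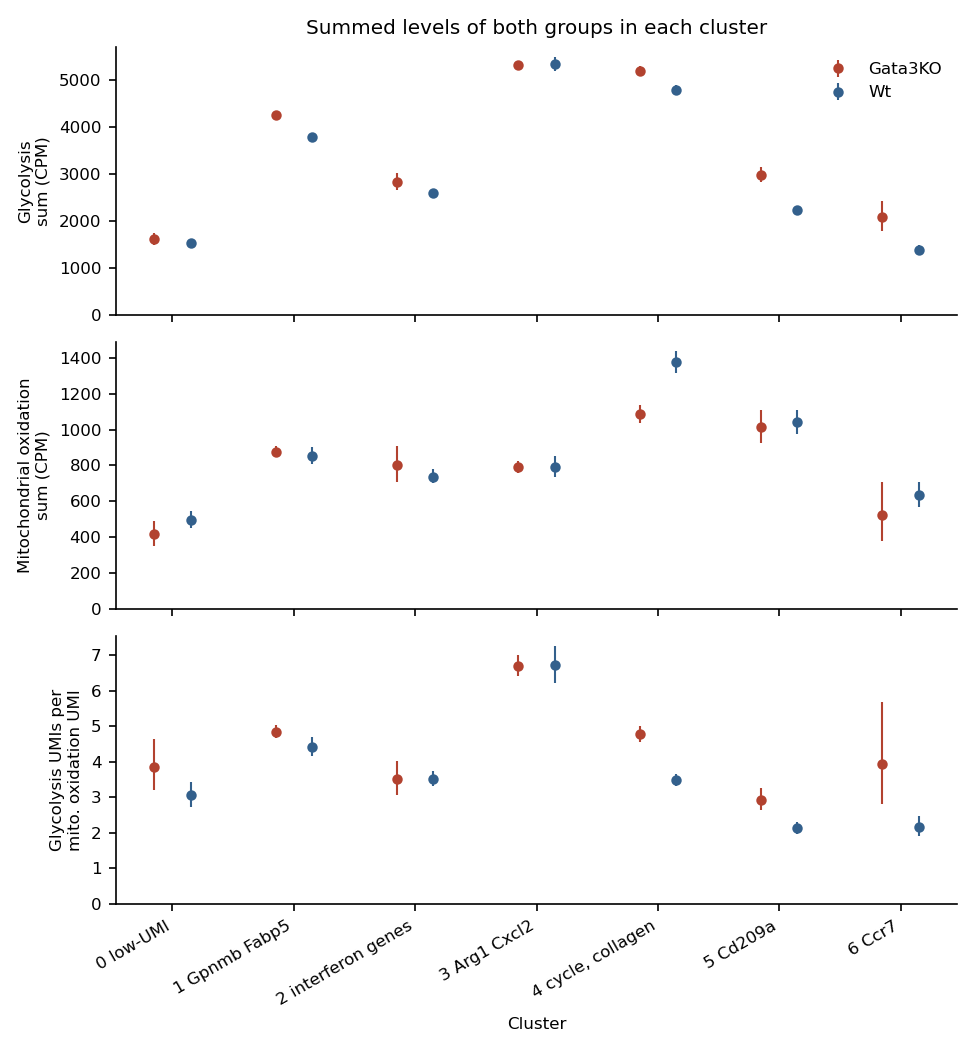
Summed glycolysis (top, CPM), summed mitochondrial oxidation (middle, CPM) and glycolysis UMIs per mitochondrial oxidation UMI (bottom) in clusters 0 to 6, Gata3KO left (red) and Wt right (blue), with 95% counting intervals. In clusters 2 and 3 the points of the bottom panel lie level (3.51 in both libraries, and 6.70 beside 6.72), and cluster 3 is the highest.

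Member by member in the class, 24 of the 35 measured genes were above 0 on the log2 scale in Gata3KO, against 56.0% of all 5887 measured genes (at least 20 CPM in 1 library, listed in both). Past 1.5-fold, after 1 CPM was added, were *Eno1* and *Idh1* (higher, against 4.82% of all measured genes) and *Pfkfb4* (lower, against 7.71%), so 3 of 35 stood beside 12.5% of all. Glycolysis had 10 of 17 measured genes above 0 (median 0.22), mitochondrial oxidation 10 of 14 (median 0.056) and the cytosolic enzymes 4 of 4 (median 0.40), beside a median of 0.044 over all measured genes. *Slc2a1* (18.1 CPM in Gata3KO, 15.3 CPM in Wt) and *Suclg2* (18.9 CPM in Gata3KO, 11.9 CPM in Wt) fell just under the level filter, and *Hk1* (17.5 CPM in Gata3KO, 22.6 CPM in Wt) and *Idh3a* (23.6 CPM in Gata3KO, 24.4 CPM in Wt) just above it.

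**Figure D2:**
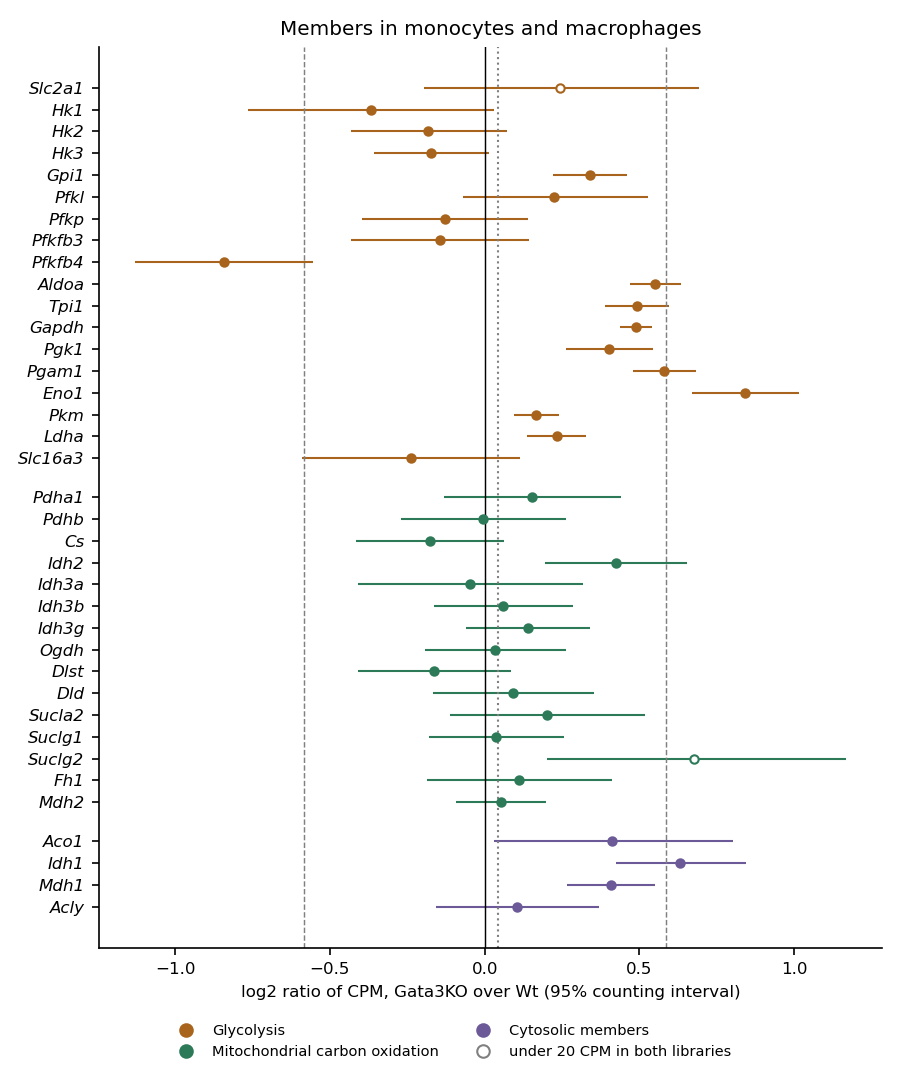
Log2 ratio of CPM, Gata3KO over Wt, for all 37 genes in monocytes and macrophages, with 95% counting intervals; open points are under 20 CPM in both libraries, dashed lines mark 1.5-fold and the dotted line the median of all measured genes. The 7 genes from *Aldoa* to *Pkm* lie right of 0 (0.17 to 0.84), while the 3 hexokinases lie left of it with intervals that include 0.

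Entry of glucose and its first steps did not share a direction by value. *Slc2a1*, the glucose transporter GLUT1, had 124 UMIs and 18.1 CPM in Gata3KO and 67 UMIs and 15.3 CPM in Wt. Its log2 ratio was 0.24 (-0.20 to 0.69), an interval that included 0. The hexokinases, which trap glucose as glucose 6-phosphate, were all lower in Gata3KO by value, with intervals that included 0. *Hk1* was at 17.5 CPM in Gata3KO and 22.6 CPM in Wt (-0.37, -0.76 to 0.031). *Hk2* was at 45.6 CPM in Gata3KO and 51.8 CPM in Wt, and *Hk3*, the myeloid form, at 84.0 CPM in Gata3KO and 94.6 CPM in Wt. *Hk3* gave 56.6% of the hexokinase UMIs of the class. *Gpi1*, which interconverts glucose and fructose 6-phosphate, was at 244 CPM in Gata3KO and 193 CPM in Wt (0.34, 0.22 to 0.46). Of the phosphofructokinases, which commit sugar to glycolysis, *Pfkl* was at 38.9 CPM in Gata3KO and 33.3 CPM in Wt and *Pfkp* at 41.7 CPM in Gata3KO and 45.6 CPM in Wt, both with intervals that included 0.

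Of the bifunctional enzymes that set the level of fructose bisphosphate activating phosphofructokinase, only *Pfkfb4* was past 1.5-fold. *Pfkfb4* (ENSMUSG00000025648, chromosome 9 at 108991778 to 109032228, GRCm38) had 191 UMIs and 27.8 CPM in Gata3KO, and 219 UMIs and 49.9 CPM in Wt, a log2 ratio of -0.84 (-1.13 to -0.56). *Pfkfb3* was at 35.9 CPM in Gata3KO and 39.7 CPM in Wt (-0.15, -0.43 to 0.14). *Pfkfb4* was the member furthest down, and its level was low in both libraries.

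The steps from aldolase to pyruvate kinase were all higher in Gata3KO in the class sums, with all 7 intervals above 0. Counting intervals narrow as UMIs rise, and the share of all measured genes with intervals clear of 0 was not counted. The direction was not kept by 2 of the 7 under other processing: *Pkm* was below 0 in 5 of 16 alternatives (-0.18 to 0.41 over all) and *Pgam1* in 2 of 16 (-0.21 to 0.94), and both were below 0 with cluster shares held equal. *Eno1* (ENSMUSG00000063524, chromosome 4 at 150236721 to 150248879), enolase, which forms phosphoenolpyruvate, had 1048 UMIs and 153 CPM in Gata3KO and 374 UMIs and 85.3 CPM in Wt, a log2 ratio of 0.84 (0.67 to 1.01). It has a near copy, *Eno1b*, listed at 3.21 CPM in Gata3KO and 2.28 CPM in Wt, and how reads that fit both were counted is not stated in the sources used here. The annotation also lists pseudogene copies of *Aldoa*, *Gapdh*, *Pgam1*, *Pgk1* and *Ldha*, so their levels are uncertain to the extent that reads were shared. *Pgam1* (ENSMUSG00000011752, chromosome 19 at 41911923 to 41918660), phosphoglycerate mutase, was at 375 CPM in Gata3KO and 251 CPM in Wt (0.58, 0.48 to 0.68). *Aldoa*, the aldolase of muscle and most other cells, whose symbol GENCODE M21 gives to 2 adjoining entries on chromosome 7, was at 578 CPM in Gata3KO and 395 CPM in Wt (0.55, 0.47 to 0.63). Both fell just short of 1.5-fold. *Tpi1*, triose phosphate isomerase, was at 360 CPM in Gata3KO and 256 CPM in Wt (0.49). *Pgk1*, phosphoglycerate kinase, which makes ATP, was at 184 CPM in Gata3KO and 140 CPM in Wt (0.40).

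The 2 most abundant members were *Gapdh* and *Pkm*. *Gapdh*, the dehydrogenase that makes NADH, was at 1417 CPM in Gata3KO and 1009 CPM in Wt (0.49, 0.44 to 0.54) and gave 30.5% of the glycolysis UMIs in Gata3KO and 28.1% in Wt. *Pkm*, pyruvate kinase, was at 636 CPM in Gata3KO and 567 CPM in Wt (0.17, 0.096 to 0.24), the smallest ratio of the 7. Its share of the glycolysis UMIs was 13.7% in Gata3KO and 15.8% in Wt. For the lactate branch, *Ldha*, lactate dehydrogenase A, was at 370 CPM in Gata3KO and 315 CPM in Wt (0.23, 0.14 to 0.33), and was below 0 in 2 of 16 alternatives (-0.15 to 0.42). *Slc16a3*, the lactate exporter MCT4, was at 23.2 CPM in Gata3KO and 27.4 CPM in Wt (-0.24, -0.59 to 0.11).

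Pyruvate dehydrogenase and the cycle lay near level, and none of the 14 measured genes was past 1.5-fold in Gata3KO. *Idh2*, the NADP-linked mitochondrial isocitrate dehydrogenase, stood highest at 71.6 CPM in Gata3KO and 53.4 CPM in Wt (0.42, 0.20 to 0.65). *Sucla2*, a succinyl-CoA ligase subunit, was at 34.8 CPM in Gata3KO and 30.3 CPM in Wt (0.20, -0.11 to 0.52). *Pdha1*, the alpha subunit of pyruvate dehydrogenase, was at 40.8 CPM in Gata3KO and 36.7 CPM in Wt (0.15, -0.13 to 0.44). At the other end, *Cs*, citrate synthase, was at 51.0 CPM in Gata3KO and 57.7 CPM in Wt (-0.18, -0.41 to 0.062). *Dlst*, of the oxoglutarate dehydrogenase complex, was at 47.7 CPM in Gata3KO and 53.4 CPM in Wt (-0.16, -0.41 to 0.086), and *Idh3a*, of the NAD-linked isocitrate dehydrogenase, at 23.6 CPM in Gata3KO and 24.4 CPM in Wt. Among the most abundant, *Mdh2*, mitochondrial malate dehydrogenase, was at 147 CPM in Gata3KO and 142 CPM in Wt (0.052, -0.094 to 0.20) and *Idh3g* at 81.3 CPM in Gata3KO and 73.9 CPM in Wt (0.14, -0.061 to 0.34). Intervals lay above 0 for *Idh2* and for *Suclg2*, which was under the level filter.

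Of the cytosolic enzymes, *Idh1* (ENSMUSG00000025950, chromosome 1 at 65158616 to 65186500), which makes NADPH from isocitrate, had 650 UMIs and 94.7 CPM in Gata3KO and 268 UMIs and 61.1 CPM in Wt (0.63, 0.43 to 0.84). *Mdh1*, malate dehydrogenase of the malate-aspartate shuttle, was at 179 CPM in Gata3KO and 135 CPM in Wt (0.41, 0.27 to 0.55). *Aco1*, cytosolic aconitase and iron regulatory protein, was at 25.8 CPM in Gata3KO and 19.4 CPM in Wt (0.41, 0.032 to 0.80). *Acly*, ATP citrate lyase, which feeds lipid synthesis, was at 47.1 CPM in Gata3KO and 43.8 CPM in Wt, with an interval that included 0. All 4 were higher by value in Gata3KO, 3 of them with intervals above 0, a share not counted over all measured genes.

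Within clusters the same genes differed less evenly. In cluster 1 none of the 34 measured members was past 1.5-fold, beside 8.96% of all measured genes, and the glycolysis median was 0.047. There *Eno1* was at 130 CPM in Gata3KO and 92.6 CPM in Wt (0.49, 0.21 to 0.77) and *Idh1* at 116 CPM in Gata3KO and 87.5 CPM in Wt (0.40, 0.12 to 0.69). The lowest of cluster 1 were *Dld*, the shared dehydrogenase subunit, at 45.4 CPM in Gata3KO and 59.4 CPM in Wt (-0.39, -0.77 to -0.0026), and *Cs*. *Aldoa*, higher in the class, was level in cluster 1 with 443 CPM in Gata3KO and 437 CPM in Wt.

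In cluster 2 the Gata3KO values rest on 35 cells, and its cells were not alike in the 2 libraries. The 8 monocyte markers summed to 6103 CPM in Gata3KO and 2649 CPM in Wt, the 9 macrophage markers to 22122 CPM in Gata3KO and 34244 CPM in Wt, and the 7 skeletal muscle markers to 36.6 CPM in Gata3KO, with *Acta1* and *Tnnc2* at 0, and 219 CPM in Wt; their part was not tested. *Eno1* was at 97.5 CPM in Gata3KO and 56.8 CPM in Wt (0.78, 0.16 to 1.36) and *Gpi1* at 277 CPM in Gata3KO and 177 CPM in Wt (0.65, 0.30 to 0.98). *Pfkfb4* was at 36.6 CPM from 12 UMIs in Gata3KO and 68.4 CPM in Wt (-0.90, -1.89 to -0.049), and *Hk3* at 42.7 CPM in Gata3KO and 66.3 CPM in Wt with an interval that included 0. Past 1.5-fold were 3 glycolysis genes upward and 4 downward, beside 12.8% and 14.6% of all measured genes. Those outside the naming rule, singled out after their values were seen as were further genes behind such counts, were *Slc16a3* upward and *Hk1* and *Pfkfb3* downward, the last from 3 UMIs in Gata3KO and 72 UMIs in Wt.

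In cluster 3 the glycolysis sum was level, at 5303 CPM in Gata3KO and 5335 CPM in Wt, while single members differed. *Hk2* was at 47.2 CPM in Gata3KO and 87.0 CPM in Wt (-0.88, -1.29 to -0.47), and *Slc16a3* at 35.0 CPM in Gata3KO and 62.0 CPM in Wt (-0.83, -1.30 to -0.34). *Hk3* and *Pfkp* were lower too, at -0.81 (-1.15 to -0.47) and -0.64 (-1.04 to -0.22). *Aldoa* was higher at 760 CPM in Gata3KO and 560 CPM in Wt (0.44, 0.30 to 0.58). Among the cycle and cytosolic genes *Idh2* was at 71.9 CPM in Gata3KO and 42.4 CPM in Wt (0.76, 0.26 to 1.29) and *Mdh1* at 170 CPM in Gata3KO and 101 CPM in Wt (0.75, 0.43 to 1.08). Glycolysis had 4 genes past 1.5-fold downward and 0 upward, beside 10.7% and 12.3% of all measured genes. The cells of cluster 3 were not alike in the 2 libraries: the 9 macrophage markers summed to 40831 CPM in Gata3KO and 18576 CPM in Wt and the 8 monocyte markers to 1839 CPM in Gata3KO and 5635 CPM in Wt, and their part in these values was not tested.

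Outside the class, the balance was higher in Gata3KO in clusters 4, 5, 0 and 6, with intervals above 0. It differed by 0.34 (0.028 to 0.65) in cluster 0 and by 0.87 (0.33 to 1.43) in cluster 6, where 10 Gata3KO cells stood against 73 Wt cells. Cluster 5, conventional dendritic cell 2-like (*Cd209a*), had 2.94 glycolysis UMIs per mitochondrial UMI in 44 Gata3KO cells and 2.14 in 109 Wt cells, a log2 difference of 0.46 (0.27 to 0.65). At a finer resolution (1.2) the difference was smaller among *Cd209a*-led cells. Finer cluster 6 had 2.17 in 29 Gata3KO cells and 2.03 in 96 Wt cells (0.098, -0.13 to 0.33). Finer cluster 14, also conventional dendritic cell 2-like, had 4.55 in 15 Gata3KO cells and 3.39 in 5 Wt cells (0.42, -0.045 to 0.89). The part of this makeup was not tested. In cluster 5 *Aldoa* was at 343 CPM in Gata3KO and 140 CPM in Wt (1.30, 0.95 to 1.64), *Pgk1* at 0.72 (0.16 to 1.27) and *Pfkfb4* at -1.09 (-1.97 to -0.29). Of the 15 measured glycolysis genes of cluster 5, 4 were past 1.5-fold upward (with *Gapdh* and *Slc2a1*) and 2 downward (with *Pfkfb3*), beside 9.89% and 17.0% of all measured genes. *Idh2* and *Suclg2* were the mitochondrial genes past it, both upward. The skeletal muscle markers of cluster 5 summed to 24.2 CPM in Gata3KO, with *Myog*, *Ckm* and *Des* at 0, and to 95.3 CPM in Wt, with all 7 detected; their part was not tested. Cluster 4, led by collagen genes and with the highest cell-cycle score, had 4.78 in 91 Gata3KO cells and 3.48 in 68 Wt cells (0.46, 0.35 to 0.56). The glycolysis sum there was 5180 CPM in Gata3KO and 4783 CPM in Wt (0.11, 0.070 to 0.16), and the mitochondrial sum 1084 CPM in Gata3KO and 1373 CPM in Wt (-0.34, -0.43 to -0.25), with *Idh3a* at 44.6 CPM in Gata3KO and 83.3 CPM in Wt (-0.90, -1.33 to -0.48) and *Dld* at -0.56 (-0.99 to -0.12). Among members at 50 CPM or more in cluster 4, *Idh1* (0.53) and *Aldoa* (0.50) were furthest up, and past 1.5-fold lay 1 glycolysis gene upward (*Pfkl*, 38.9 CPM in Gata3KO and 24.1 CPM in Wt) and 1 downward (*Hk1*), beside 9.96% and 13.4% of all measured genes. In cluster 4 the 7 skeletal muscle markers summed to 44.6 CPM in Gata3KO and 471 CPM in Wt. The 6 fibroblast markers there summed to 2945 CPM in Gata3KO and 4375 CPM in Wt, and the 9 macrophage markers to 24696 CPM in Gata3KO and 13932 CPM in Wt. All of these markers were detected in both libraries, and their part was not tested. At resolution 1.2 the balance of finer cluster 4, resident-like macrophage-like, differed by 0.17 (0.012 to 0.33) on 90 Gata3KO and 38 Wt cells. That of the collagen-led finer cluster 11 differed by 0.52 (0.37 to 0.66) on 22 Gata3KO and 34 Wt cells. How many cells these finer clusters share with cluster 4 was not counted. In the low-UMI cluster 0, *Gapdh* was at 306 CPM in Gata3KO and 205 CPM in Wt (0.58, 0.22 to 0.93), *Acly* at 0.62 (-0.23 to 1.44), *Mdh2* at -1.07 (-2.10 to -0.16) and *Pfkp* at -0.86 (-1.96 to 0.11).

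**Figure D3:**
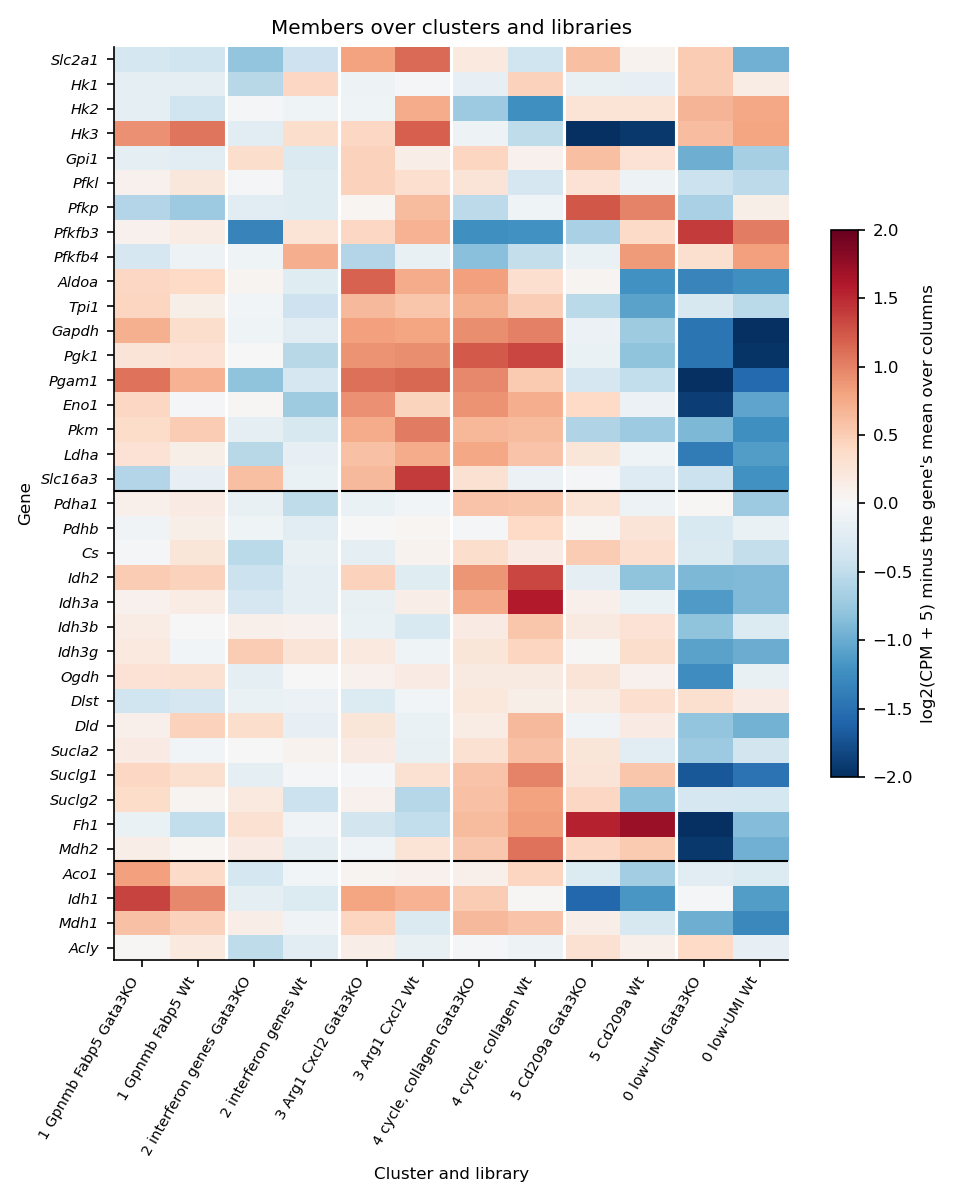
Level of each gene, as log2(CPM + 5) minus the gene's mean over the 12 columns, in 6 clusters with Gata3KO left of Wt; black lines part glycolysis, mitochondrial oxidation and cytosolic genes. *Hk3* is low and *Fh1* high in both libraries of cluster 5, and the genes from *Aldoa* to *Ldha* are high in clusters 3 and 4.

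Among clusters 0 to 6 the glycolysis sum was highest in cluster 3 and the mitochondrial sum in cluster 4, in each library. With both libraries summed, cluster 3 had the highest glycolysis sum of the 8 clusters, 5311 CPM, with a mitochondrial sum of 792 CPM and a balance of 6.71 (6.46 to 6.97). Cluster 1 had the next highest balance, 4.73 (4.57 to 4.88), with 4110 CPM of glycolysis and 870 CPM of mitochondrial oxidation. Next were cluster 4 at 4.12 (3.98 to 4.27), cluster 2 at 3.51 (3.33 to 3.71) and cluster 0 at 3.27, and the intervals of clusters 2 and 0 overlapped. Cluster 7, skeletal muscle-like, had 2.93 (2.66 to 3.23), overlapping cluster 0. Cluster 5 had 2.40 (2.25 to 2.55) and cluster 6, mature dendritic cell-like (*Ccr7*), 2.37 (2.10 to 2.69), which overlapped each other. Below clusters 3 and 1 the order was not the same in each library: clusters 4, 6, 0 and 2 followed in Gata3KO at 4.78, 3.95 (from 10 cells), 3.86 and 3.51, and clusters 2 and 4 in Wt at 3.51 and 3.48, with clusters 0 and 6 at 3.05 and 2.17. Over the 8 clusters the glycolysis sum ran from 1470 CPM in cluster 6 to 5311 CPM in cluster 3. The mitochondrial sum ran from 474 CPM in cluster 0 to 1214 CPM in cluster 4 and 1618 CPM in cluster 7. It was 792 CPM in cluster 3, 620 CPM in cluster 6 and 1032 CPM in cluster 5. The clusters were made without these 37 genes and the wider pathway list among the variable genes, but genes that vary with them took part.

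Single genes marked out states. *Pfkfb3* was at 297 CPM (255 to 345) in cluster 6, with 73.9 CPM in the next cluster, and gave 92.7% of the *Pfkfb* UMIs there against 50.6% in monocytes and macrophages. *Fh1*, fumarate hydratase, was at 150 CPM (130 to 171) in cluster 5, with 75.7 CPM in the next. *Pfkp* was highest in cluster 5 too, at 113 CPM (96.2 to 132), and gave 76.5% of its phosphofructokinase UMIs, against 52.7% in monocytes and macrophages. *Hk3* was lowest there at 7.99 CPM from 11 UMIs, and highest in cluster 1 at 104 CPM. *Hk2* gave 70.8% of the hexokinase UMIs of cluster 5 and 30.9% of those of monocytes and macrophages. In cluster 5 these patterns were present in each library, with *Hk3* at 4.40 CPM in Gata3KO and 9.75 CPM in Wt, and *Fh1* at 136 CPM in Gata3KO and 156 CPM in Wt.

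In cluster 3 *Slc2a1* (30.6 CPM), *Slc16a3* (41.3 CPM), *Pkm* (781 CPM), *Pgam1* (394 CPM), and *Pfkl* reached their highest level over both libraries, with intervals clear of the next cluster; of these *Slc2a1*, *Pgam1* and *Pfkl* were highest there in each library. *Gpi1* was level between clusters 3 and 5 (287 CPM in each). *Gapdh* was highest in cluster 4 (1666 CPM), where *Pgk1* (305 CPM) and *Ldha* (451 CPM) were not clear of the next cluster (298 and 434 CPM). Glycolysis genes were lowest in cluster 6 for 8 of 18 and in cluster 0 for 5, and mitochondrial genes in cluster 6 for 6 of 15 and in cluster 0 for 7. Mitochondrial genes were highest in cluster 7 for 11 of 15 over both libraries, but that rests on 4 Gata3KO cells, which gave 341 of its 564 mitochondrial UMIs and stood at 2551 CPM. The 29 Wt cells of cluster 7 stood at 1037 CPM, and within Wt 4 of the 15 genes were highest there and 8 in cluster 4. *Idh1* (107 CPM) and *Aco1* (30.8 CPM) were highest in cluster 1, and *Idh1* was lowest in cluster 5 at 14.5 CPM.

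From cell to cell, the share of a cell's UMIs that came from glycolysis had a median of 0.373% in Gata3KO (quartiles 0.261% and 0.512%) and 0.250% in Wt (0.171% and 0.387%) in monocytes and macrophages, so the quartile ranges overlapped. Mitochondrial oxidation took 0.0795% of a cell's UMIs in Gata3KO and 0.0716% in Wt. In cluster 3 the glycolysis median was 0.420% in Gata3KO and 0.472% in Wt, with quartiles of 0.276% and 0.642% in Gata3KO and 0.363% and 0.571% in Wt. Cluster 2 had 0.187% in Gata3KO and 0.190% in Wt.

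**Figure D4:**
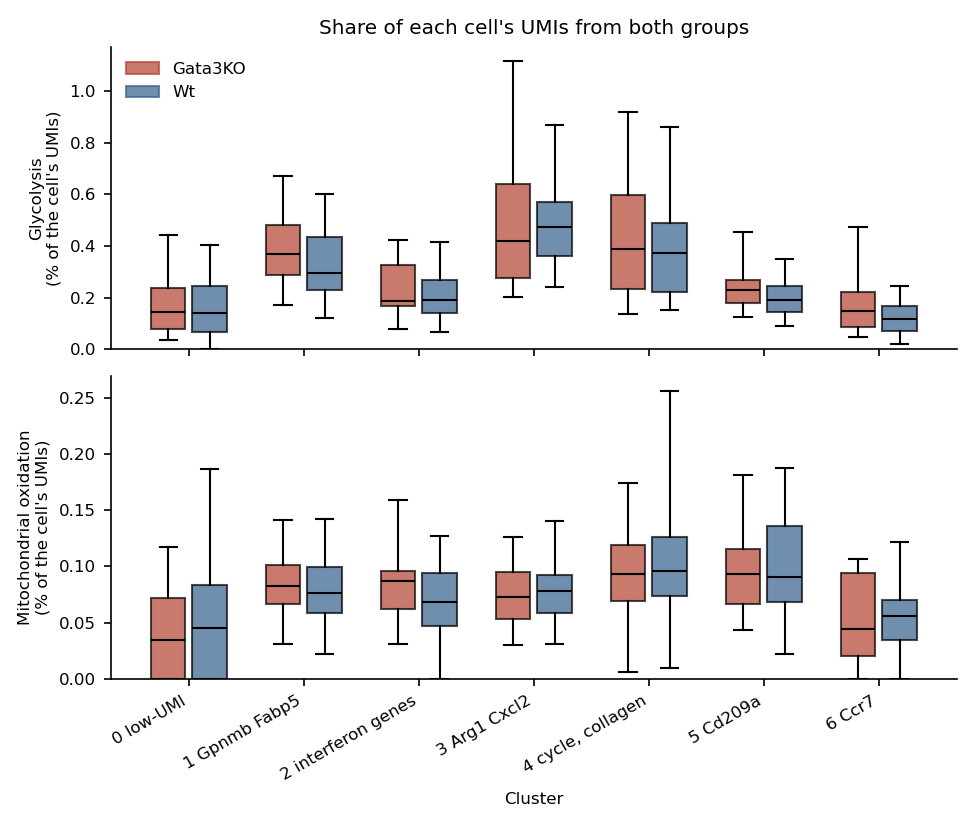
Share of each cell's UMIs (%) from glycolysis (top) and mitochondrial oxidation (bottom) in clusters 0 to 6, Gata3KO left (red) and Wt right (blue); boxes are quartiles, lines medians and whiskers the 5th and 95th percentiles over cells. Cluster 3 has the highest glycolysis medians of the clusters drawn, 0.420% in Gata3KO and 0.472% in Wt.

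The balance also moved with the mitochondrial share by which cells were kept. Over all deposited barcodes it was 5.24 in Gata3KO and 3.75 in Wt at up to 5% mitochondrial UMIs, and 4.87 in Gata3KO and 3.66 in Wt from 5% to 10%. From 10% to 20% it was 3.63 in Gata3KO and 3.24 in Wt, and from 20% to 40% it was 3.32 in Gata3KO and 2.99 in Wt. Above 40% the values were 2.67 (2.31 to 3.09) in Gata3KO and 2.71 (2.34 to 3.14) in Wt, which overlapped. In CPM over genes other than the mt- genes, glycolysis was at 4929 in Gata3KO and 3593 in Wt at up to 5%, and 2243 in Gata3KO and 2312 in Wt from 20% to 40%. Most barcodes of the Gata3KO library lay at 20% to 40% (1726 of 3434), and 1039 of 3290 Wt barcodes did.

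**Figure D5:**
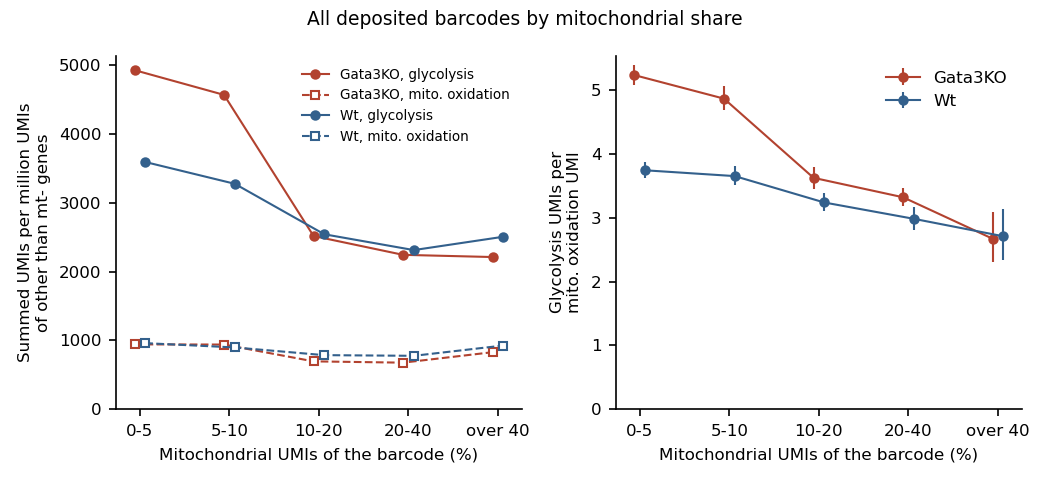
Glycolysis and mitochondrial oxidation in CPM over genes other than mt- genes (left) and glycolysis UMIs per mitochondrial oxidation UMI with 95% counting intervals (right), by the mitochondrial share of the barcode, Gata3KO red and Wt blue. The libraries lie furthest apart up to 5% (5.24 and 3.75), their intervals do not overlap up to 40%, and they meet above 40% (2.67 and 2.71).

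The wider list of 69 related genes was read in the same class. Of the other glycolysis genes only *Pgm1* and *Ldhb* were measured, and both were past 1.5-fold upward, beside 4.82% of all measured genes. *Slc2a6*, of the same list, fell just under the level filter and went the other way. It was at 3.64 CPM from 25 UMIs in Gata3KO and 19.15 CPM from 84 UMIs in Wt (-2.39, -3.10 to -1.735), and was singled out after its values were seen. Pyruvate entry had 3 of 3 measured genes above 0 (median 0.39), among them the pyruvate carrier genes *Mpc1* (202 CPM in Gata3KO, 174 CPM in Wt) and *Mpc2* (132 CPM in Gata3KO, 99.9 CPM in Wt). Other cycle and side reactions had 8 of 14 above 0 (median 0.11), and the pentose phosphate pathway 4 of 6 (median 0.051). Hypoxia response genes had 9 of 9 measured genes above 0 and 6 past 1.5-fold upward (median 0.75), beside 56.0% and 4.82% of all measured genes. Within clusters the medians of their measured genes were smaller, 0.36 over 5 in cluster 1, 0.24 over 5 in cluster 2 and 0.27 over 10 in cluster 3. *Hilpda*, a lipid droplet protein, was at 62.2 CPM in Gata3KO and 24.4 CPM in Wt (1.35, 1.04 to 1.67), and *Bnip3l*, a mitophagy receptor, at 218 CPM in Gata3KO and 121 CPM in Wt (0.85, 0.70 to 0.99). *Hilpda* also leads cluster 3, which is larger in Gata3KO. *Acod1*, which turns the cycle intermediate cis-aconitate into itaconate, was singled out after its values were seen, at 1.60 CPM from 11 UMIs in Gata3KO and 30.1 CPM from 132 UMIs in Wt (-4.23, -5.27 to -3.34).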

How the data were processed

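Whole-number UMI counts per gene and barcode were deposited by the authors as 1 matrix per library, already limited to genes in at least 5 cells; per the submitters' processing notes the tools were Seurat 3.0.2 in R 3.6.1 after Cell Ranger 3.0.1, with build mm10; settings: not given in the sources used here. Kept cells had 500 or more UMIs, 200 or more genes and no more than 10% of mitochondrial UMIs. Counts were scaled to 10000 per cell, log-transformed and clustered without integration (scanpy 1.11.5, 2000 variable genes less 14 pathway genes, 30 components, 15 neighbours, Leiden resolution 0.6, leidenalg 0.10.2). Scrublet called 4 Gata3KO and 1 Wt doublets, which stayed in.

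Raw counts were summed per library and class, and divided by the sum to give CPM. In a sum, fewer cells of a type and less RNA per cell cannot be told apart. Intervals are exact Poisson (CPM), conditional binomial (ratios) and conditional odds-ratio intervals at 95%. Only the conditional binomial intervals were tested on simulated data, which were drawn without spread between cells. A gene counted as measured at 20 CPM in 1 library. Named were *Gata3* and *Cx3cr1*; in the class every gene past 1.5-fold, the 3 highest and lowest and 2 most abundant of each group; in clusters with 30 cells of each library the 2 furthest each way at 50 CPM; and wider-list genes past 1.5-fold at 50 CPM. Genes, lists and rules were chosen with earlier results of these data known. Coordinates are GENCODE M21 on GRCm38.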

Additional observations from a re-analysis of the deposited data

Results flagged for a closer look

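For 3 genes the log2 ratio of Gata3KO over Wt had counting intervals on opposite sides of 0 in different clusters. With 1 library per genotype the difference between clusters was not tested. *Gapdh* was higher in Gata3KO in cluster 0 (0.58), cluster 1 (0.37) and cluster 5 (0.60), and lower in cluster 4 (-0.083). *Ldha* was higher in Gata3KO in cluster 1 (0.17), cluster 4 (0.20) and cluster 5 (0.33), and lower in cluster 2 (-0.39), where the Gata3KO value rests on 62 UMIs. *Idh2* was higher in Gata3KO in cluster 3 (0.76) and lower in cluster 4 (-0.47). Many gene and cluster pairs were read, and no allowance was made for their number.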

How the results depend on the processing

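No paired analysis was possible because each genotype has 1 library and the labels give no replicate numbers. In monocytes and macrophages the glycolysis median (0.22) ranged from -0.098 to 0.49 over 19 alternatives and was below 0 in 1 of them, with cluster shares held equal (-0.098). The mitochondrial median (0.056) was 0.18 with every barcode reclustered, 0.25 with cells thinned to 2000 UMIs, -0.058 at Leiden resolution 0.3, -0.027 over all kept cells, -0.063 with finer cluster shares held equal, -0.089 among cells of 8000 to 20000 UMIs and -0.088 with cluster 4 added. The balance difference (0.29) was above 0 in 18 of 18 alternatives: 0.17 at 1000 UMIs and 5% mitochondrial UMIs, 0.083 at resolution 0.3, 0.41 with every cell weighted alike, 0.21 thinned, 0.46 over all kept cells, 0.042 with cluster shares held equal, 0.078 with finer shares held equal and 0.37 with cluster 4 added. Genes past 1.5-fold (3, beside 12.5% of all measured genes) numbered 1 at 1000 UMIs and 5%, 12 with every cell weighted alike and 15 thinned. They numbered 7 over all kept cells, 1 with cluster shares held equal and 1 at 100 CPM, and the cause was not tested. Over all kept cells 5 of 36 were higher and 2 lower, beside 400 higher and 570 lower of 6133 measured genes. For the other alternatives the share of all measured genes was not counted, so those counts cannot be set against it. *Eno1* ranged from 0.48 to 1.11, *Idh1* from 0.16 to 0.86 and *Pfkfb4* from -1.23 to -0.40 over 16 alternatives. The settings 8000 to 20000 UMIs, finer shares and cluster 4 were chosen after seeing the data.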

Other observations

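At a finer resolution (1.2, 15 clusters) the states parted further. The highest balance of glycolysis to mitochondrial UMIs was 6.79 (6.53 to 7.08) in finer cluster 1, led by *Arg1* and *Cxcl2*. Finer cluster 12 had 6.17 (5.54 to 6.89), and there the balance was lower in Gata3KO by value (-0.76, -1.21 to -0.30) on 6 Gata3KO cells and 38 Wt cells. Finer cluster 7 (*Mmp12*, *Gpnmb*) had 5.21 (4.97 to 5.48), and the interferon-led finer cluster 5 (*Cxcl9*, *Cxcl10*) 3.78 (3.52 to 4.07). Finer cluster 3, with *Ccr2* and MHC class II genes among its leading genes, had 3.23 (2.98 to 3.51), and finer cluster 6, conventional dendritic cell 2-like, 2.07 (1.93 to 2.22). Among all states the *Cd209a* cells lay lowest beside finer cluster 8, whose 2.18 (1.73 to 2.75) rests on cells of low depth.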
